A study of Danio rerio with 9 samples.

Results

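The genes described here are those of the proteasome, the protease complex that degrades ubiquitin-tagged proteins, and they were chosen by symbol. Of 27158 genes in the deposited count table, 53 had a symbol beginning psma to psmg followed by a digit. Of these, 52 encode subunits, activators, an inhibitor or assembly factors of the proteasome. The remaining one, psmc3ip, shares the prefix but encodes a partner of meiotic recombinases, and it is given apart. RNA was sequenced from visible thyroid tumors of adult zebrafish carrying a CCDC6-RET transgene (4 libraries, replicates 2, 3, 5 and 6) or a BRAF(V600E) transgene (5 libraries, replicates 1, 2, 3, 6 and 7). In both models the zebrafish thyroglobulin promoter drove the oncogene, and no normal thyroid was included. CCDC6-RET had been injected into embryos with a red TdTomato thyroid reporter, whereas BRAF(V600E) belongs to an older line of fish. Fish of that line whose tumor onset was recorded in the study were also p53 mutants, and whether this holds for the sequenced tumors is not in the labels. It is not stated either that every library is from its own fish, and the p-values may in part reflect technical spread.

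The proteasome is a barrel, the core particle, capped by a regulatory particle. The outer rings of the barrel are built of alpha subunits and the inner rings of beta subunits, of which psmb5, psmb6 and psmb7 carry the active sites. The regulatory particle holds a ring of ATPases that unfold the substrate and a set of further subunits that bind ubiquitin and remove it. In cells of the immune system, and in other cells exposed to interferon gamma, the active beta subunits are replaced by the immunoproteasome subunits psmb8, psmb9 and psmb10, which change the peptides made for presentation on MHC class I molecules. In zebrafish, as in other fish, several of these immune beta genes lie together in the MHC class I region of chromosome 19. Thyroid cancers are known to vary in how far they keep antigen presentation.

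Total counts per library were 8662544 to 13596477 in CCDC6-RET tumors and 10656967 to 13354953 in BRAF(V600E) tumors. The groups differed across the transcriptome. Of 18453 genes tested with edgeR's quasi-likelihood test, 33.9% were higher and 38.2% lower in CCDC6-RET tumors at an adjusted p (Benjamini-Hochberg) below 0.05, and the groups did not overlap for 64.8% of them. The cell makeup of the samples was not measured, but marker genes of thyroid and muscle differed as well. Of the 11 thyroid genes tested, 9 were higher in CCDC6-RET tumors and none was lower. Of 14 skeletal muscle genes, all 14 were lower. The muscle genes summed to 19.5 to 62.7 CPM (counts scaled to a common library size) in CCDC6-RET tumors, against 4993 to 17084 CPM in BRAF(V600E) tumors. Several of them passed the filter on low counts through the BRAF(V600E) group, in which they were high. One was ldb3b, with 1, 3, 3 and 2 counts in CCDC6-RET libraries 2, 3, 5 and 6. The thyroid gene nkx2.1 passed through the CCDC6-RET group. Such calls are less certain for this reason. The labelled tissue was seen in both groups, with thyroglobulin (tg) averaging 19263 ± 7685 CPM in CCDC6-RET tumors and 9877 ± 7530 CPM in BRAF(V600E) tumors (SD). In such bulk samples fewer cells of a type and less RNA per cell cannot be told apart. Library sizes were scaled by the TMM method, and levels in CPM are not divided by gene length, so they are compared between samples and not between genes.

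All 16 genes of the constitutive core and 16 of the 19 of the regulatory particle were higher in CCDC6-RET tumors (10 and 2 of them when libraries were scaled to ribosomal protein genes), and the 4 beta genes of the MHC region on chromosome 19 were at or near 0 there. Of the 52 proteasome genes, 51 passed the filter on low counts. Of these, 37 were higher and 6 lower in CCDC6-RET tumors and 8 did not pass, against the 33.9% and 38.2% of all genes called in these directions. The groups did not overlap for 42 of the 51, against 64.8% of all genes. The median log2 fold change of the 51 was 0.87, and that of all tested genes was -0.09. Of the 51, psmb8a, psmb10 and psmb12 passed the filter through the BRAF(V600E) group alone. psmb9a reached the minimum count in only part of the CCDC6-RET libraries, so it too passed through the BRAF(V600E) group. The size of the rise depended on the scaling. When libraries were scaled to 89 ribosomal protein genes, the median of all genes moved by -0.56 (log2). Of the 51 proteasome genes 13 were then called higher and 8 lower, beside 3063 and 8937 of all 18453 tested genes.

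**Figure D1:**
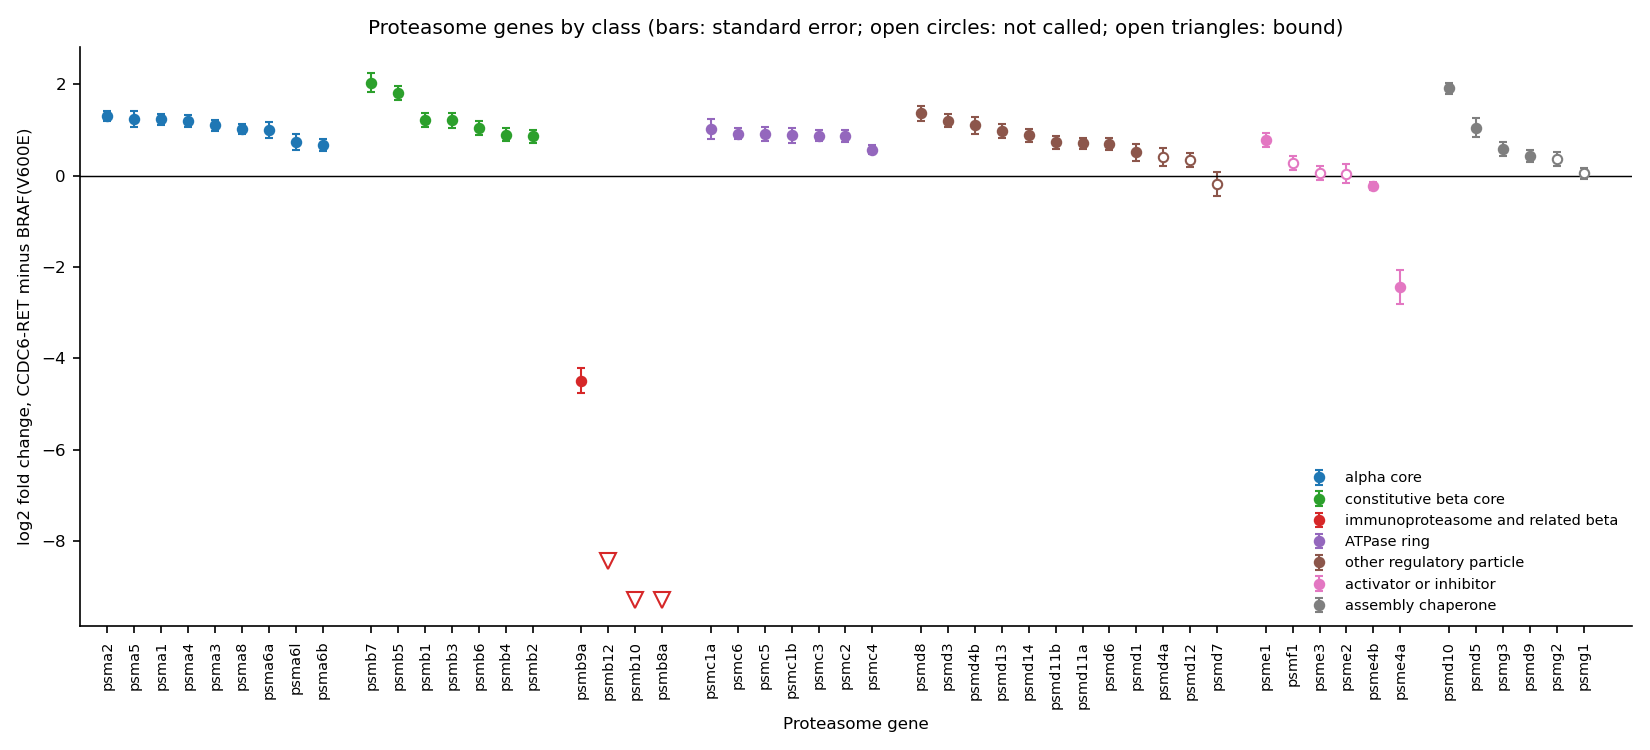
Log2 fold change (CCDC6-RET minus BRAF(V600E)) of each tested proteasome gene by class, with its standard error; open circles did not pass the test and open triangles are upper bounds for genes with no count in any CCDC6-RET library. All 16 constitutive core genes lie above 0, whereas the 4 beta genes of the MHC region lie below -4.

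All 9 alpha genes were higher in CCDC6-RET tumors with no overlap of the groups (median fold change 2.14, log2 range 0.67 to 1.30). The largest difference was that of psma2 (ENSDARG00000040121, chromosome 16, GRCz10). It had 108, 87.9, 107 and 102 CPM in CCDC6-RET tumors 2, 3, 5 and 6, against 40.1, 38.7, 46.6, 38.2 and 41.9 CPM in BRAF(V600E) tumors 1, 2, 3, 6 and 7. Every CCDC6-RET tumor lay well above the highest BRAF(V600E) tumor, and the fold change was 2.46 (log2 1.30 ± 0.11 SE, edgeR adjusted p = 7.01e-06). The alpha gene psma8 is in mammals a testis subunit, but the RefSeq table lists psma7, a general alpha subunit, among the older names of this zebrafish gene. Its levels were 229, 191, 232 and 216 CPM in CCDC6-RET tumors, against 97.4, 108, 120.0, 106 and 105 CPM in BRAF(V600E) tumors. The groups were again apart, by 1.02 ± 0.11 (log2, edgeR adjusted p = 2.54e-05).

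A single alpha subunit, psma6, has 3 gene copies in the table, and these had the 3 smallest log2 fold changes of the class. For psma6a the levels were 67.9, 61.9, 78.3 and 41.6 CPM in CCDC6-RET tumors, against 28.8, 32.9, 31.5, 33.6 and 28.5 CPM in BRAF(V600E) tumors (log2 1.01 ± 0.17, edgeR adjusted p = 0.000484). The copy psma6b had 51.2, 38.9, 44.8 and 44.2 CPM in CCDC6-RET tumors, against 28.4, 28.9, 32.2, 26.5 and 24.3 CPM in BRAF(V600E) tumors (log2 0.67 ± 0.12, edgeR adjusted p = 0.000817). The third, psma6l, had 63.9, 45.5, 69.6 and 43.2 CPM in CCDC6-RET tumors, against 26.1, 35.8, 39.8, 34.6 and 30.3 CPM in BRAF(V600E) tumors (log2 0.74 ± 0.18, edgeR adjusted p = 0.00477). In each copy every CCDC6-RET tumor was above every BRAF(V600E) tumor, with the narrowest gap in psma6l. None of the 3 copies kept its call under ribosomal protein scaling, with log2 fold changes of 0.45, 0.13 and 0.20. The other alpha genes psma1, psma3, psma4 and psma5 rose 2.35-, 2.14-, 2.29- and 2.36-fold.

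The 7 constitutive beta genes were also all higher in CCDC6-RET tumors without overlap (median 1.21, range 0.86 to 2.04), and the fold changes of those of the active sites were not tested against each other. psmb7 (ENSDARG00000037962, chromosome 21), whose product cleaves after basic residues, had 156, 129, 167 and 120.0 CPM in CCDC6-RET tumors, against 29.3, 27.1, 41.9, 28.1 and 47.8 CPM in BRAF(V600E) tumors. It averaged 143 ± 22.0 CPM in CCDC6-RET tumors and 34.8 ± 9.42 CPM in BRAF(V600E) tumors (SD), a 4.10-fold difference and the largest rise among the 52 genes (log2 2.04 ± 0.20, edgeR adjusted p = 2e-05). psmb5 (ENSDARG00000075445, chromosome 2) encodes the subunit that cleaves after hydrophobic residues and that binds the drug bortezomib. Its levels were 120.5, 170.1, 171 and 115 CPM in CCDC6-RET tumors, against 39.5, 41.8, 44.9, 37.6 and 42.3 CPM in BRAF(V600E) tumors. The lowest CCDC6-RET tumor was far above the highest BRAF(V600E) tumor, and the fold change was 3.50 (log2 1.81 ± 0.15, edgeR adjusted p = 6.61e-06).

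The third catalytic gene, psmb6 (ENSDARG00000002240, chromosome 23), whose product cleaves after acidic residues, was also higher. It had 111, 84.8, 102 and 73.0 CPM in CCDC6-RET tumors, against 36.0, 47.0, 48.2, 40.9 and 51.9 CPM in BRAF(V600E) tumors (log2 1.05 ± 0.16, edgeR adjusted p = 0.000217, lost at 0.50 under ribosomal protein scaling). Ratios of counts within a library do not depend on scaling. psmb7 had 1.40 to 1.64 counts for each psmb6 count in CCDC6-RET tumors, against 0.576 to 0.921 in BRAF(V600E) tumors, with no overlap. psmb5 had 1.09 to 2.01 counts for each psmb6 count in CCDC6-RET tumors, against 0.814 to 1.097 in BRAF(V600E) tumors, and here CCDC6-RET tumor 2 and BRAF(V600E) tumor 1 overlapped. These ratios were not tested. Among the structural beta genes psmb1 and psmb3 both rose by 1.21, psmb4 by 0.89 and psmb2 by 0.86. The smallest, psmb2, had 119.6, 78.5, 108 and 92.0 CPM in CCDC6-RET tumors, against 47.4, 58.8, 61.7, 51.4 and 54.7 CPM in BRAF(V600E) tumors (edgeR adjusted p = 0.000415), and neither psmb2 nor psmb4 kept its call under ribosomal protein scaling.

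The 4 beta genes of the MHC region on chromosome 19 went the other way. psmb8a (ENSDARG00000001303, chromosome 19, 7186913 to 7225623, GRCz10) encodes the subunit that replaces psmb5. It had 0 counts in each of the 4 CCDC6-RET libraries, against 34.9, 49.4, 46.8, 46.6 and 35.5 CPM (389 to 663 counts) in BRAF(V600E) tumors. At a floor of 3 counts over all CCDC6-RET libraries it was at least 623-fold lower in CCDC6-RET tumors. For psmb12 (chromosome 19, 7196298 to 7200531), a further beta gene of the MHC region of fish, all 4 CCDC6-RET libraries were again at 0, against 21.3, 23.0, 25.6, 28.6 and 19.2 CPM in BRAF(V600E) tumors, at least 344-fold lower in CCDC6-RET tumors. The third gene without a count, named psmb10 in the table (ENSDARG00000001656, chromosome 19, 7192854 to 7225660), had 0 counts in the CCDC6-RET libraries, against 37.5, 43.7, 45.5, 45.2 and 41.0 CPM in BRAF(V600E) tumors. It was at least 622-fold lower in CCDC6-RET tumors. RefSeq names this identifier psmb13a, another beta gene of the fish MHC region, and not psmb10. For these 3 genes no p is given, since they passed the filter through the BRAF(V600E) group alone.

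The fourth gene of the group was low and not at 0. psmb9a (ENSDARG00000000656, chromosome 19, 7201455 to 7203448), whose product replaces psmb6, had 27, 7, 18 and 9 counts in CCDC6-RET libraries 2, 3, 5 and 6, which gave 2.04, 0.899, 1.46 and 0.857 CPM. In BRAF(V600E) tumors it had 29.3, 32.7, 32.3, 31.0 and 26.5 CPM. It was thus lower by 4.49 ± 0.27 on the log2 scale in CCDC6-RET tumors, and it was the only one of these 4 genes counted in every library. psmb9a passed the filter through the BRAF(V600E) group, in which it was high. No p is given for it, and its fold change is less certain for this reason. The table gives psmb8a and psmb10 long gene models that span psmb12, psmb9a and abcb3l1, and the split of reads between overlapping genes is not described in the sources used here. The level of each single gene is less certain than that of the group. Together the 4 genes made up 0.0455% to 0.0843% of all core gene counts in CCDC6-RET tumors, against 11.3% to 13.8% in BRAF(V600E) tumors. psmb8a held none of the counts of psmb8a and psmb5 in CCDC6-RET tumors, where a count of 0 allows at most 0.142% to 0.247% per library, against 45.6% to 55.3% in BRAF(V600E) tumors. psmb9a held 1.05% to 1.80% of the counts of psmb9a and psmb6 in CCDC6-RET tumors, against 33.8% to 44.9% in BRAF(V600E) tumors.

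The gene of the immune subunit that replaces psmb7 was counted in every library. The row spelled PSMB10 in capitals (ENSDARG00000043781, chromosome 4, 75630955 to 75641899), which RefSeq also names psmb10, falls outside the symbol rule and was looked up after the table had been read. It had 78.7, 42.1, 88.5 and 51.0 CPM in CCDC6-RET tumors, against 41.2, 53.6, 45.3, 42.4 and 35.5 CPM in BRAF(V600E) tumors. The groups overlapped, since CCDC6-RET tumors 3 and 6 lay among the BRAF(V600E) tumors, and the difference in level (log2 0.58 ± 0.22, edgeR adjusted p = 0.0401) was 0.06 under ribosomal protein scaling, without a call. Beside its constitutive counterpart it nevertheless took a smaller part, with 24.6% to 34.6% of the counts of PSMB10 and psmb7 in CCDC6-RET tumors, against 42.6% to 66.4% in BRAF(V600E) tumors. The row psmb11b, a copy of the beta subunit found in the thymus of mammals, was close to absent in every tumor, with 1, 1, 0 and 0 counts in CCDC6-RET libraries and 1 count in all BRAF(V600E) libraries together. It was too low to be tested.

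**Figure D2:**
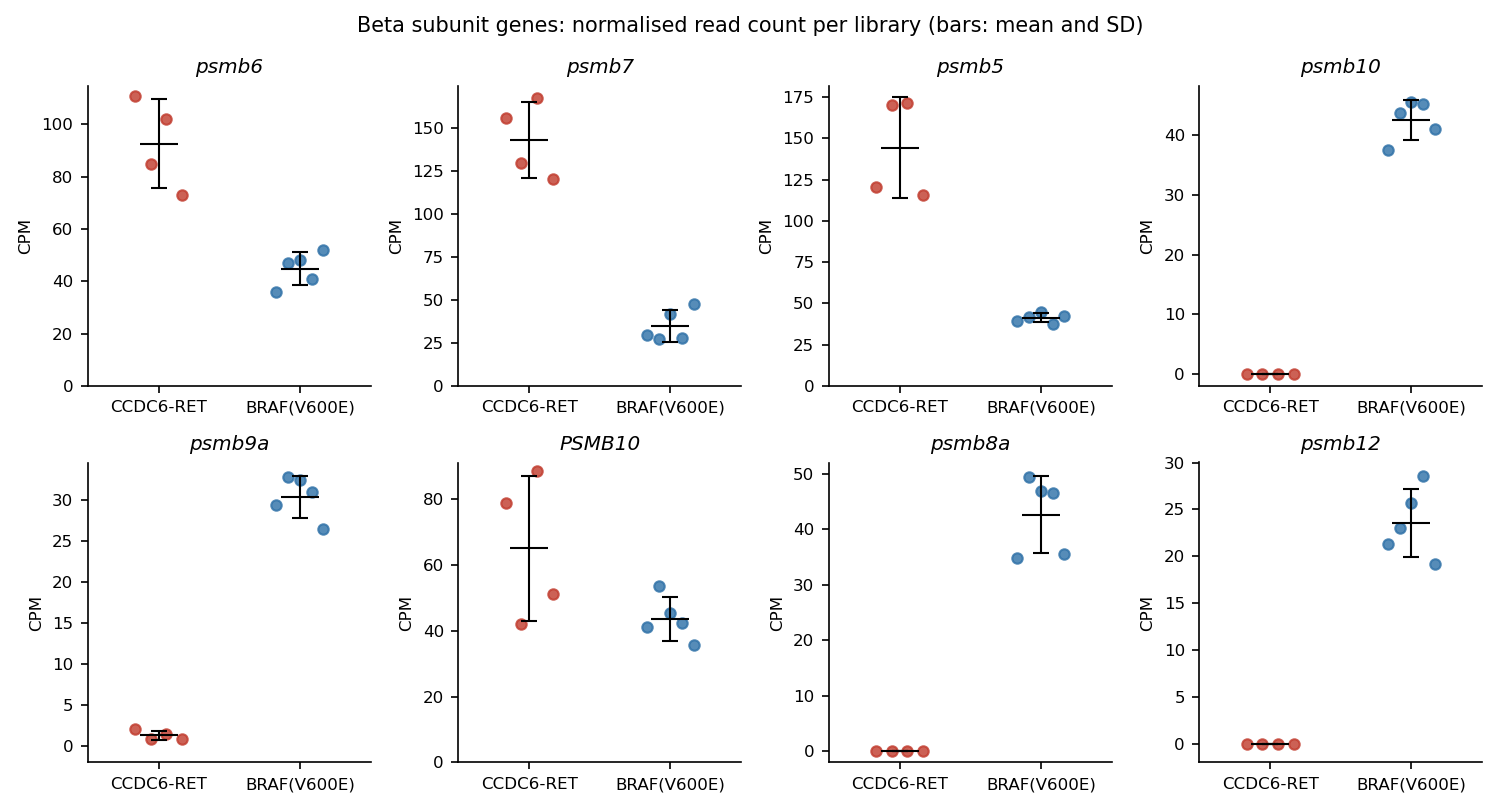
CPM of the 3 catalytic constitutive beta genes and of the immune and MHC-region beta genes in each library, with the mean and SD of each group. The constitutive genes psmb6, psmb7 and psmb5 are higher in every CCDC6-RET tumor, psmb10, psmb8a and psmb12 are at 0 in all of them, psmb9a is at 0.857 to 2.04 CPM, and PSMB10 overlaps between the groups.

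The genes at 0 lie side by side. Within 250 kb of the 4 genes the table has 30 rows, the 4 included, of which 27 were tested, 9 being higher and 12 lower in CCDC6-RET tumors, near the 33.9% and 38.2% of all genes. Of the 16 rows with at least 100 counts in every BRAF(V600E) library, 3 had no count in any CCDC6-RET library, and these were psmb8a, psmb10 and psmb12. The window was drawn around these genes, so it was fixed in advance that they were in it, also at 100 kb. No other of the 16 rows was at 0 in every CCDC6-RET library. Directly beside psmb9a lies abcb3l1 (RefSeq tap2a), a subunit of the TAP transporter that carries peptides made by the proteasome to MHC class I molecules. It had 2 counts in the CCDC6-RET libraries together, against 1927 in the BRAF(V600E) libraries, a ratio at equal depth of 684 for BRAF(V600E) over CCDC6-RET tumors, with an exact 95% counting interval of 189 to 5652 that covers counting error only.

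The next genes on either side were expressed in both groups. On one flank mhc1uba, a class I heavy chain gene, averaged 39.4 ± 24.5 CPM in CCDC6-RET tumors and 145 ± 21.8 CPM in BRAF(V600E) tumors (log2 -1.87 ± 0.35, edgeR adjusted p = 0.000954). On the other flank brd2a, a chromatin reader, averaged 184 ± 22.3 CPM in CCDC6-RET tumors and 106 ± 6.78 CPM in BRAF(V600E) tumors (log2 0.79 ± 0.11, edgeR adjusted p = 0.000154, and 0.22 without a call under ribosomal protein scaling). The genes at or near 0 were thus set off from these flanking genes by gaps of 4737 bases (from mhc1uba to psmb8a) and 8380 bases (from psmb10 to brd2a). Over the whole table, 10283 genes had at least 100 counts in every BRAF(V600E) library, and 27 of these (0.263%) had none in any CCDC6-RET library, 5 of them on chromosome 19. The gene content of the zebrafish MHC class I region is known to differ between haplotypes, and reads of another haplotype need not align to the reference one. The sources used here do not give the haplotypes of these fish, and a difference in haplotype between the lines cannot be told apart from the transgene.

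**Figure D3:**
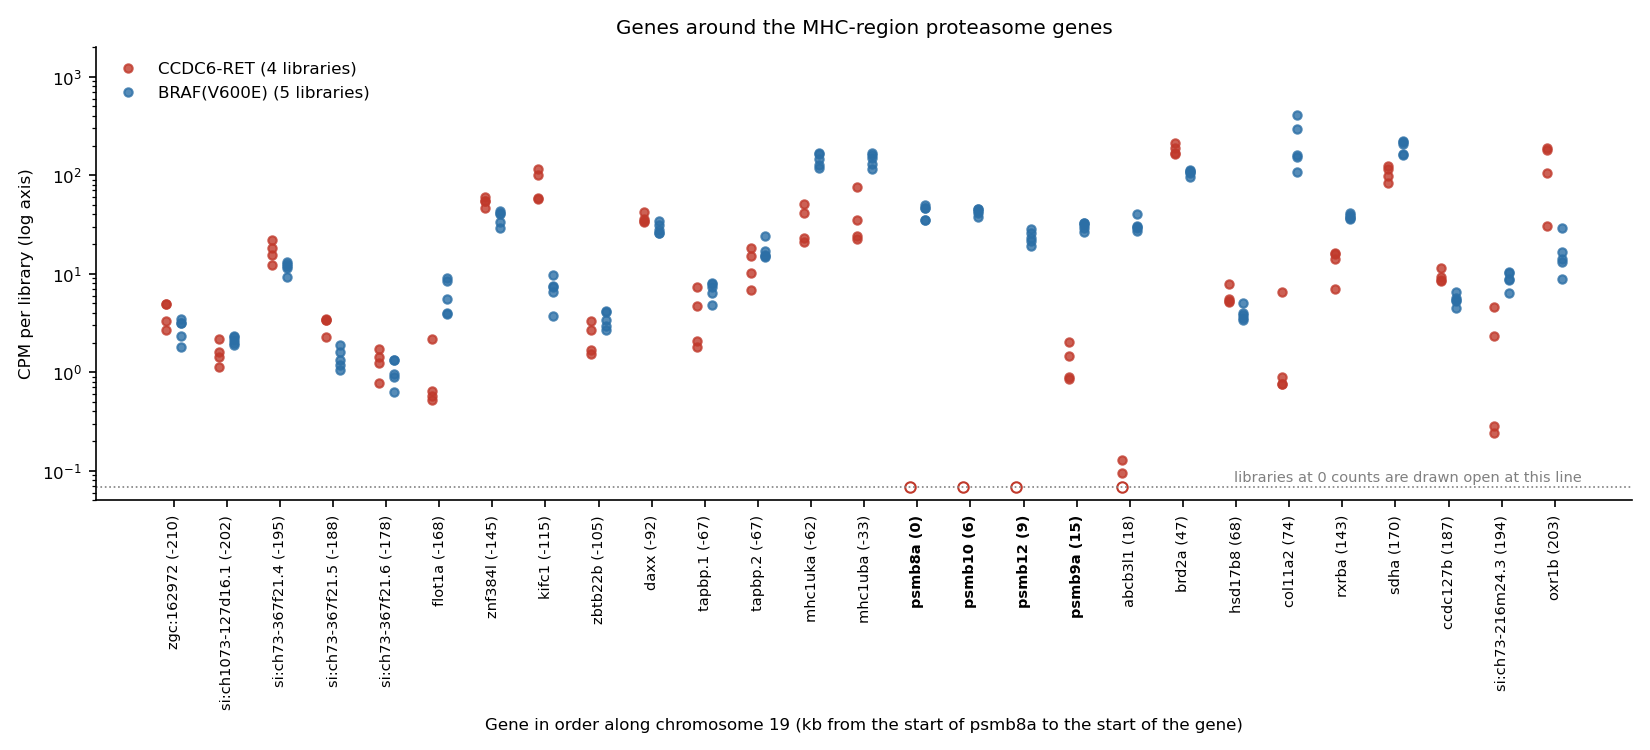
CPM per library (log axis) of the genes around the MHC-region proteasome genes that averaged over 1 CPM in either group, in order along chromosome 19, with the distance in kb from the start of psmb8a in brackets. psmb8a, psmb10 and psmb12 have no count in any CCDC6-RET library and abcb3l1 has 2 counts in all, while mhc1uba and brd2a on either side are expressed in both groups.

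Many markers of immune cells and of thymic epithelium, which express the immunoproteasome genes strongly, were also lower in CCDC6-RET tumors, though not all. Of all tested genes 38.2% were called lower, and no marker list was tested against that share. Summed over the list, B cell markers were at 2.67 to 5.91 CPM in CCDC6-RET tumors and 73.0 to 94.0 CPM in BRAF(V600E) tumors, with all 8 lower. Macrophage markers were at 163 to 662 CPM in CCDC6-RET tumors and 3689 to 5278 CPM in BRAF(V600E) tumors (9 of 12 lower). Most of this sum came from cd74a (means of 178 CPM in CCDC6-RET and 2631 CPM in BRAF(V600E) tumors) and cd74b (102 and 1654 CPM). The other macrophage markers differed less, from -2.52 for mpeg1.1 to 0.35 for marco (log2). Neutrophil markers were at 87.2 to 260 CPM in CCDC6-RET tumors and 227 to 285 CPM in BRAF(V600E) tumors, with overlap (5 of 8 lower). Most of that sum came from nccrp1 and mmp9, which did not pass. In contrast, mpx averaged 0.366 CPM in CCDC6-RET tumors and 21.5 CPM in BRAF(V600E) tumors. T and NK cell markers summed to 51.7 to 122 CPM in CCDC6-RET tumors and 181 to 211 CPM in BRAF(V600E) tumors, with 8 of the 11 tested lower and 2 higher. None of the T and NK cell, B cell, macrophage or neutrophil markers was at 0 in every CCDC6-RET library, but some were nearly so. In CCDC6-RET libraries 2, 3, 5 and 6, il2rb and igic1s1 each had 2, 0, 0 and 0 counts, and lyz had 1, 0, 2 and 1. Markers so low passed the filter through the BRAF(V600E) group, in which they were high. Their calls are less certain for this reason. Other markers were well above 0 in CCDC6-RET tumors, such as zap70 at 44.3 to 107 CPM. For the thymic epithelium list, which contains psmb11b, the sums were 22.2 to 31.3 CPM in CCDC6-RET tumors and 128 to 170 CPM in BRAF(V600E) tumors, 3 of the 4 tested genes were lower, and the chemokine gene ccl25a was at 0 in CCDC6-RET tumors. The part of these cells in the result was not tested.

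In the regulatory particle 16 of the 19 genes were higher and 3 did not pass (median 0.88, beside 1.15 in the core, a difference that was not tested). The 7 ATPase genes were all higher in CCDC6-RET tumors without overlap (median 0.88, range 0.57 to 1.03), and none of them kept its call under ribosomal protein scaling. The largest rise was that of psmc1a, with 137, 71.4, 132 and 77.6 CPM in CCDC6-RET tumors, against 49.1, 50.4, 50.8, 45.2 and 61.1 CPM in BRAF(V600E) tumors (log2 1.03 ± 0.21, edgeR adjusted p = 0.00169). CCDC6-RET tumors 2 and 5 were well above tumors 3 and 6 in this gene. Its copy psmc1b had 77.3, 51.5, 74.6 and 53.5 CPM in CCDC6-RET tumors, against 30.0, 36.2, 41.2, 33.8 and 33.2 CPM in BRAF(V600E) tumors (log2 0.88 ± 0.16, edgeR adjusted p = 0.000718). The smallest was psmc4, with 143, 136, 151 and 122 CPM in CCDC6-RET tumors, against 88.5, 89.7, 97.8, 89.1 and 99.4 CPM in BRAF(V600E) tumors (log2 0.57 ± 0.10, edgeR adjusted p = 0.000592). The groups were narrow and apart in psmc4, although its log2 fold change under ribosomal protein scaling was 0.01. The other ATPase genes psmc2, psmc3, psmc5 and psmc6 rose by 0.87, 0.88, 0.90 and 0.92.

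Of the 12 other regulatory particle genes, 9 were higher in CCDC6-RET tumors and 3 did not pass (median 0.72, range -0.18 to 1.37). The largest rise was that of psmd8, a lid subunit, with 153, 160.4, 230.3 and 131 CPM in CCDC6-RET tumors, against 63.4, 62.3, 69.3, 62.1 and 69.3 CPM in BRAF(V600E) tumors (log2 1.37 ± 0.16, edgeR adjusted p = 4.77e-05). The lid subunit psmd3 followed at 1.21 ± 0.14, and these 2 were the only ones of the class called under ribosomal protein scaling. psmd14, the metalloprotease that removes ubiquitin chains from the substrate, had 96.1, 70.8, 88.1 and 61.8 CPM in CCDC6-RET tumors, against 38.6, 44.2, 44.9, 42.1 and 45.3 CPM in BRAF(V600E) tumors (log2 0.88 ± 0.14, edgeR adjusted p = 0.000334). Every CCDC6-RET tumor was above every BRAF(V600E) tumor. psmd7, which pairs with psmd14 in the lid, did not pass. It had 30.7, 12.7, 28.8 and 15.0 CPM in CCDC6-RET tumors, against 23.9, 23.5, 26.6, 24.1 and 26.0 CPM in BRAF(V600E) tumors (log2 -0.18 ± 0.26, edgeR adjusted p = 0.545). CCDC6-RET tumors 2 and 5 lay above and tumors 3 and 6 below all BRAF(V600E) tumors in psmd7.

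Among the remaining lid genes psmd13 and psmd6 rose by 0.98 and 0.70, and psmd12 did not pass (log2 0.34 ± 0.15, edgeR adjusted p = 0.0621). The lid subunit psmd11 has 2 copies in the table. psmd11a had 73.9, 81.4, 84.7 and 60.5 CPM in CCDC6-RET tumors, against 49.8, 45.1, 44.5, 48.5 and 41.5 CPM in BRAF(V600E) tumors (log2 0.71 ± 0.12, edgeR adjusted p = 0.000509). psmd11b had 87.5, 92.2, 103 and 67.6 CPM in CCDC6-RET tumors, against 49.4, 49.4, 62.1, 47.6 and 55.4 CPM in BRAF(V600E) tumors (log2 0.73 ± 0.14, edgeR adjusted p = 0.00111). Both copies were without overlap. The base scaffold psmd1 had 151, 107, 146 and 79.5 CPM in CCDC6-RET tumors, against 73.0, 85.5, 90.5, 87.8 and 87.3 CPM in BRAF(V600E) tumors (log2 0.51 ± 0.18, edgeR adjusted p = 0.0301). CCDC6-RET tumor 6 lay among the BRAF(V600E) tumors, and the call was lost when any one of 7 of the 9 libraries was left out, with an adjusted p of up to 0.0809, and kept without CCDC6-RET tumor 3 or tumor 6.

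The ubiquitin receptor psmd4 also has 2 copies, and these differed in their response. psmd4b had 117, 67.0, 111 and 66.2 CPM in CCDC6-RET tumors, against 42.0, 43.2, 41.9, 44.2 and 39.1 CPM in BRAF(V600E) tumors (2.15-fold, edgeR adjusted p = 0.000499). psmd4a had 18.9, 12.7, 18.8 and 10.8 CPM in CCDC6-RET tumors, against 10.5, 11.5, 12.3, 11.3 and 12.4 CPM in BRAF(V600E) tumors, and did not pass (log2 0.40 ± 0.20, edgeR adjusted p = 0.0925). The groups overlapped in psmd4a and not in psmd4b. The other large scaffold, PSMD2, has no symbol in the table, and RefSeq gives this name to 2 rows on unplaced sequence that are outside the symbol rule. One (CABZ01113954.1) averaged 51.0 ± 24.4 CPM in CCDC6-RET tumors and 43.1 ± 4.02 CPM in BRAF(V600E) tumors and did not pass (log2 0.24 ± 0.28, edgeR adjusted p = 0.455). The second (CABZ01067681.1) averaged 12.1 ± 8.84 CPM in CCDC6-RET tumors and 34.0 ± 2.26 CPM in BRAF(V600E) tumors. It was lower in CCDC6-RET tumors without overlap (log2 -1.47 ± 0.41, edgeR adjusted p = 0.00876), so no single level can be given for PSMD2.

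Summed over their genes, the constitutive core took 0.162% to 0.235% of all counts in CCDC6-RET tumors and 0.0922% to 0.108% in BRAF(V600E) tumors. The regulatory particle took 0.141% to 0.225% of all counts in CCDC6-RET tumors and 0.111% to 0.130% in BRAF(V600E) tumors. Constitutive core counts for each regulatory particle count were therefore 1.05 to 1.15 in CCDC6-RET tumors and 0.829 to 0.885 in BRAF(V600E) tumors, with no overlap. This ratio leaves out PSMB10 and the 4 MHC-region beta genes. Those 4 held 0.0455% to 0.0843% of all core gene counts in CCDC6-RET tumors and 11.3% to 13.8% in BRAF(V600E) tumors. Counting them as core would raise the BRAF(V600E) ratio more than the CCDC6-RET ratio. Of the 35 genes of the constitutive core and the regulatory particle, 32 were called higher (median 0.92). Under ribosomal protein scaling 12 were still called higher and none lower, 10 of the 16 in the core and 2 of the 19 in the regulatory particle. Of all 18453 tested genes, 3063 were called higher and 8937 lower under that scaling. The direction was kept for all called genes of both particles in that scaling, except psmd1 (-0.025).

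The CCDC6-RET tumors varied more among themselves than the BRAF(V600E) tumors. The median coefficient of variation over the 35 genes was 19.8% in CCDC6-RET tumors and 6.73% in BRAF(V600E) tumors, against 35.4% and 17.3% over all tested genes in the same groups. CCDC6-RET tumor 6 was the lowest of its group in 26 of the 35 genes. CCDC6-RET tumor 3 was also the library with the fewest counts.

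**Figure D4:**
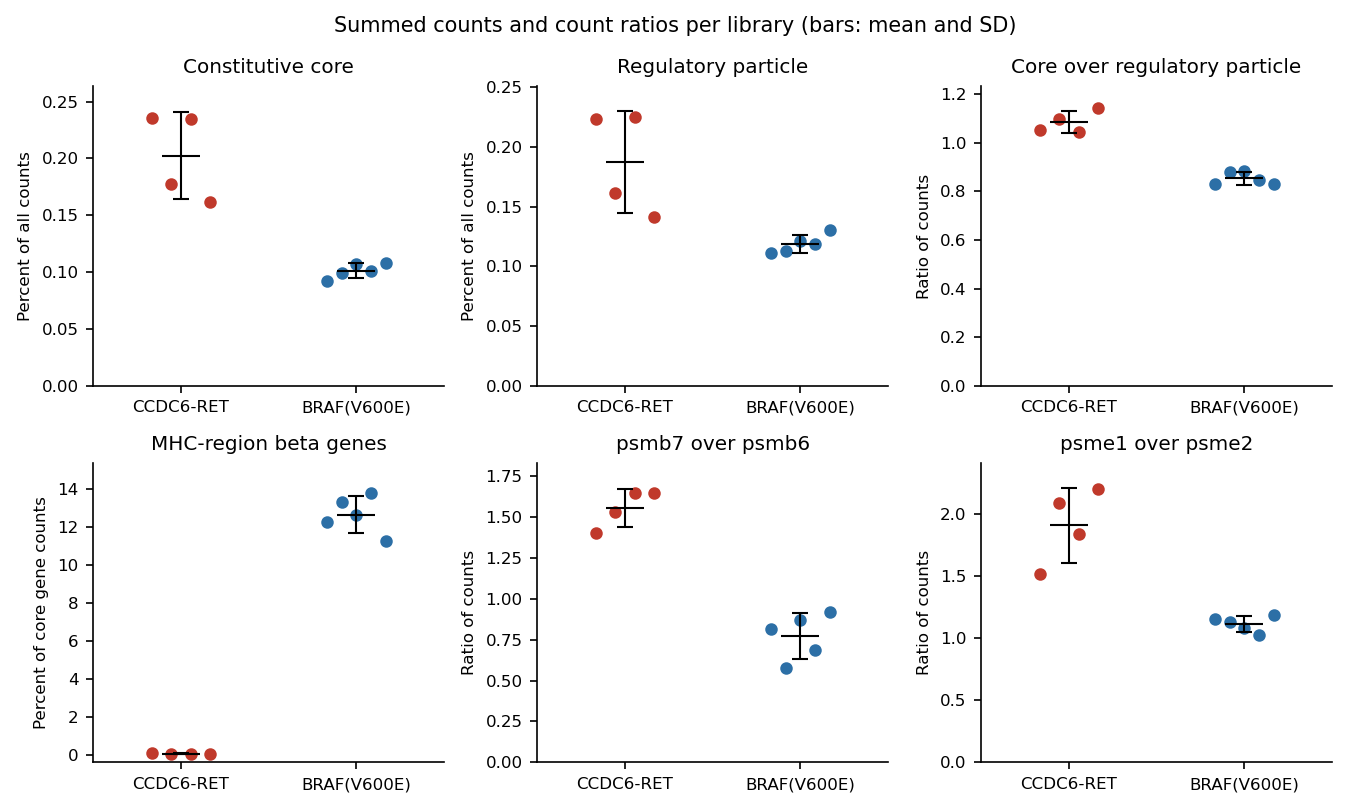
Summed counts of the constitutive core and the regulatory particle as a percentage of all counts, and count ratios between gene groups, in each library, with the mean and SD of each group. Constitutive core counts for each regulatory particle count are 1.05 to 1.15 in CCDC6-RET tumors and 0.829 to 0.885 in BRAF(V600E) tumors. The MHC-region beta genes, left out of that ratio, are under 0.1% of core gene counts in CCDC6-RET tumors.

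Of the 6 activator and inhibitor genes, 1 was higher and 2 were lower in CCDC6-RET tumors, and 3 did not pass. psme1 and psme2 encode the subunits of the activator PA28, which is induced by interferon gamma and works with the immunoproteasome. psme1 had 200.2, 189, 254 and 158 CPM in CCDC6-RET tumors, against 112, 121, 133, 117 and 101 CPM in BRAF(V600E) tumors, and every CCDC6-RET tumor was above every BRAF(V600E) tumor (log2 0.78 ± 0.15, edgeR adjusted p = 0.00103, lost at 0.22 under ribosomal protein scaling). psme2 had 132, 90.8, 138 and 72.0 CPM in CCDC6-RET tumors, against 96.5, 108, 123, 115 and 85.0 CPM in BRAF(V600E) tumors, with full overlap of the BRAF(V600E) range (log2 0.04 ± 0.21, edgeR adjusted p = 0.869). There were 1.51 to 2.20 psme1 counts for each psme2 count in CCDC6-RET tumors, against 1.02 to 1.19 in BRAF(V600E) tumors, a ratio that was not tested.

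psme3, which forms the nuclear form of this activator, had 38.0, 41.5, 45.8 and 29.0 CPM in CCDC6-RET tumors, against 43.9, 32.1, 39.3, 32.6 and 37.6 CPM in BRAF(V600E) tumors. The groups overlapped and it did not pass (log2 0.06 ± 0.16, edgeR adjusted p = 0.756), while ribosomal protein scaling put it lower by 0.51. The inhibitor psmf1 had 28.8, 25.9, 23.0 and 20.0 CPM in CCDC6-RET tumors, against 15.8, 20.3, 21.9, 20.9 and 22.0 CPM in BRAF(V600E) tumors, and did not pass either (log2 0.28 ± 0.16, edgeR adjusted p = 0.136). psme4 encodes the large activator PA200, which is best known from the testis and from DNA repair in mammals, and both copies were lower in CCDC6-RET tumors. psme4a (ENSDARG00000087911, chromosome 13) had 1.43, 1.67, 1.30 and 1.05 CPM in CCDC6-RET tumors, against 5.38, 7.50, 13.6, 5.06 and 5.56 CPM in BRAF(V600E) tumors (log2 -2.44 ± 0.37, edgeR adjusted p = 0.000251). Even the lowest BRAF(V600E) tumor was well above all CCDC6-RET tumors. psme4b had 79.7, 79.0, 75.4 and 79.0 CPM in CCDC6-RET tumors, against 87.1, 86.5, 96.5, 89.6 and 94.5 CPM in BRAF(V600E) tumors (log2 -0.21 ± 0.09, edgeR adjusted p = 0.0488). Its groups did not overlap, but its call was lost when any one of the 9 libraries was left out (adjusted p up to 0.109).

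Of the 6 assembly chaperone genes, 4 were higher in CCDC6-RET tumors and 2 did not pass (median 0.51, range 0.05 to 1.91). psmd10, which encodes gankyrin, a chaperone of the ATPase ring that also binds cell cycle regulators and is raised in human liver cancers, had the largest fold change of the 6. It had 51.3, 41.6, 46.5 and 49.6 CPM in CCDC6-RET tumors, against 13.8, 12.1, 11.9, 12.8 and 12.1 CPM in BRAF(V600E) tumors. Both groups were narrow and far apart, with a fold change of 3.76 (log2 1.91 ± 0.11, edgeR adjusted p = 1.74e-06). psmd5 and psmd9, the other chaperones of the ATPase ring, rose by 1.05 ± 0.20 and 0.44 ± 0.13, and neither kept its call under ribosomal protein scaling (0.52 and -0.12). Among chaperones of the core, psmg1 had 47.0, 36.6, 45.6 and 35.3 CPM in CCDC6-RET tumors, against 37.6, 39.2, 42.6, 39.3 and 39.8 CPM in BRAF(V600E) tumors and did not pass (log2 0.05 ± 0.12, edgeR adjusted p = 0.711, and -0.50 under ribosomal protein scaling). Its partner psmg2 did not pass (0.36 ± 0.15, edgeR adjusted p = 0.0547), and psmg3 rose by 0.59 ± 0.15, a call lost at 0.03 under ribosomal protein scaling. That scaling left 1 of the 6 genes higher and 1 lower. PSMG4, spelled in capitals and outside the symbol rule, averaged 39.1 ± 6.23 CPM in CCDC6-RET tumors and 14.3 ± 2.19 CPM in BRAF(V600E) tumors (log2 1.45 ± 0.16, edgeR adjusted p = 3.16e-05).

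Ratios between the copies of one subunit were compared in 7 pairs by a two-sided exact permutation test over the 9 libraries, whose smallest possible p is 0.00794. In 2 pairs the ratio differed between the groups. There were 0.161, 0.190, 0.170 and 0.163 psmd4a counts for each psmd4b count in CCDC6-RET tumors, against 0.250, 0.267, 0.295, 0.256 and 0.316 in BRAF(V600E) tumors. The difference in mean log2 ratio was -0.69, at the smallest exact p of 0.00794 (0.0278 after adjustment over the 7 pairs), and every CCDC6-RET tumor was lower than every BRAF(V600E) tumor. For psme4a over psme4b the ratio was 0.0180, 0.0211, 0.0172 and 0.0133 in CCDC6-RET tumors, against 0.0618, 0.0867, 0.141, 0.0565 and 0.0588 in BRAF(V600E) tumors. Here the difference was -2.10, with the same exact p of 0.00794 and adjusted value of 0.0278. Neither pair passed when a single library other than CCDC6-RET tumor 6 was left out, at adjusted exact p of 0.0625 or 0.1, since 8 libraries allow no smaller p for 2 pairs at the limit. The remaining 5 ratios, among the psma6, psmc1 and psmd11 copies, overlapped between the groups, with differences of -0.05 to 0.30 and adjusted exact p of 0.185 to 0.865. How reads shared between copies were counted is not given in the sources used here.

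**Figure D5:**
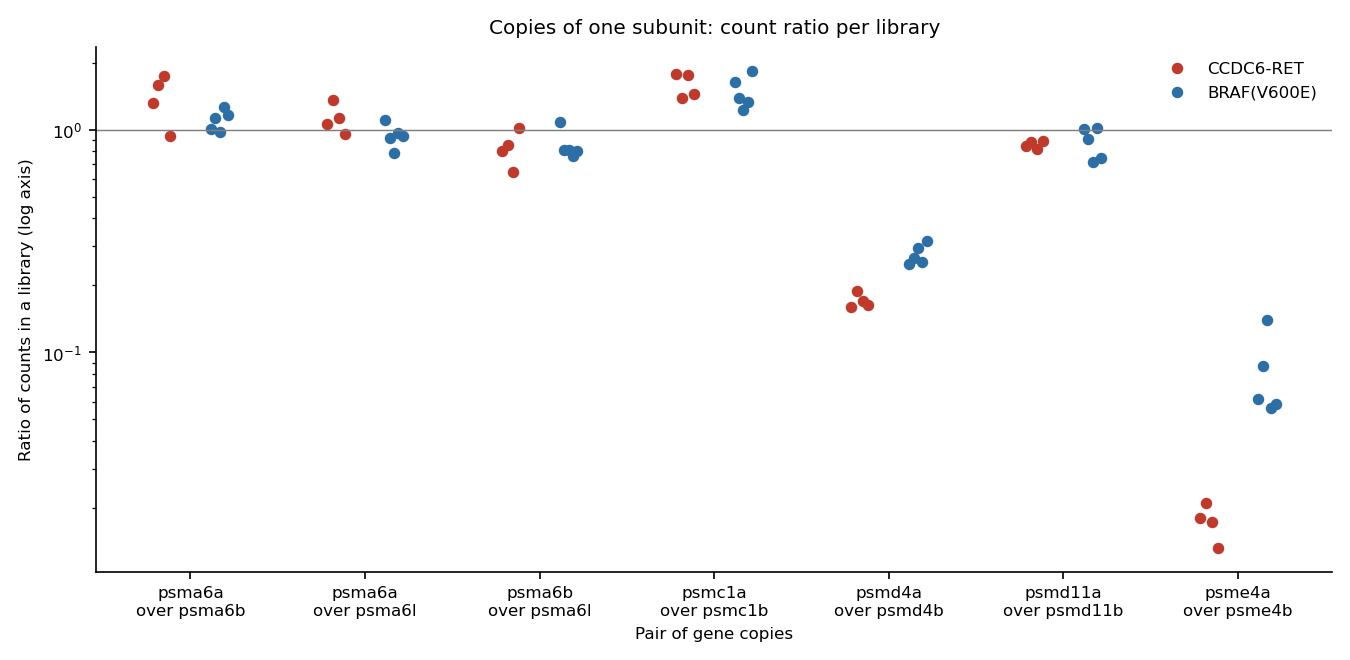
Ratio of counts between copies of one proteasome gene in each library (log axis). The psmd4a over psmd4b and psme4a over psme4b ratios of CCDC6-RET tumors lie below all BRAF(V600E) tumors, and the other 5 ratios overlap.

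psmc3ip, which only shares the prefix, had 14.6, 11.2, 13.6 and 11.8 CPM in CCDC6-RET tumors, against 1.43, 1.79, 0.695, 0.983 and 0.512 CPM in BRAF(V600E) tumors. The groups were far apart, with an 11.8-fold difference (log2 3.56 ± 0.35, edgeR adjusted p = 1.61e-05). This difference was larger than the rise of any of the 52 proteasome genes. In BRAF(V600E) libraries psmc3ip had 16, 20, 8, 14 and 7 counts, and it reached the minimum count of the filter in only part of them. It thus passed the filter through the CCDC6-RET group, in which it was high, and its fold change and p are less certain for this reason.

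Genes that work with the proteasome were counted in a list of 32 entries, of which 27 were found in the table and tested. Of these 20 were higher in CCDC6-RET tumors, 1 was lower and 6 did not pass (median log2 fold change 0.58), beside 33.9% of all genes higher and 38.2% lower. The 4 with the smallest p were shfm1 (RefSeq SEM1), a small lid subunit that the symbol rule does not take, at 1.42 ± 0.09, ufd1l, a partner of the unfoldase VCP, at 1.37 ± 0.12, zfand2a at 1.24 ± 0.12, and nfe2l1a at -3.68 ± 0.39. nfe2l1a and nfe2l1b are the zebrafish copies of NFE2L1, which in mammals raises transcription of proteasome genes when the proteasome is blocked. nfe2l1a averaged 2.28 ± 1.29 CPM in CCDC6-RET tumors and 29.9 ± 4.22 CPM in BRAF(V600E) tumors. With 5 counts in CCDC6-RET tumor 3, nfe2l1a was below the minimum count of the filter there. It thus passed the filter through the BRAF(V600E) group, in which it was high, and its fold change is less certain for this reason. nfe2l1b averaged 90.7 ± 15.8 CPM in CCDC6-RET tumors and 96.4 ± 11.3 CPM in BRAF(V600E) tumors and did not pass.

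The steps after the proteasome, peptide transport and class I loading, were counted in a list of 26 entries with 22 genes tested. Of these 4 were higher, 12 lower and 6 did not pass (median -0.57). Among those lower, abcb3l1 had 0, 1, 0 and 1 counts in CCDC6-RET libraries, and mhc1lia had 5, 0, 2 and 3. Both passed the filter through the BRAF(V600E) group, in which they were high, so their calls are less certain. No p is given for abcb3l1. Beside abcb3l1 and mhc1uka, which averaged 34.0 ± 14.5 CPM in CCDC6-RET tumors and 145 ± 22.8 CPM in BRAF(V600E) tumors (log2 -2.09 ± 0.28, edgeR adjusted p = 0.000125), the genes with the smallest p were calr and pdia3. These chaperones of the endoplasmic reticulum also act in general protein folding, and they rose by 2.03 ± 0.12 and 1.87 ± 0.16. A list of interferon signal genes had 20 tested, 2 higher, 12 lower and 6 that did not pass (median -0.82). The gene of nlrc5, in mammals the class I transactivator (si:ch211-122c9.5 in the table), was at -2.57 ± 0.21. The receptor gene crfb17 was at -2.63 ± 0.32 and the transcription factor irf8 at 2.71 ± 0.38. The feedback inhibitor socs1b had 1, 0, 1 and 1 counts in CCDC6-RET libraries, against 19, 20, 32, 35 and 25 in BRAF(V600E) libraries. No estimate is given for socs1b, since it passed the filter through the BRAF(V600E) group alone. In both lists the share called lower was above the 38.2% of all genes, and no list was tested as a whole. These shares include genes that passed the filter through the BRAF(V600E) group.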

How the data were processed

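The table deposited by the authors holds raw counts for each gene in each library. Reads were aligned to GRCz10 by STAR, for which the submitters' processing notes name version 2.3 and the methods of the study a newer one, and the read length differs between labels and methods too. Which tool counted the reads, on which annotation and with or without strand, is not given in the sources used here. Further columns hold size-factor normalized values of the authors (signal) and their mean, log2 fold changes of the authors and the standard errors of these, a Wald score from the authors, and p-values of the authors. None of these columns was used.

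Proteasome genes were rows whose symbol matched psma to psmg followed by a digit. The members, classes and lists were chosen with earlier results of these data known. Counts were fitted over the whole table with edgeR 4.0.16 in R 4.3.3 (TMM, filterByExpr with a minimum count of 10, robust glmQLFit, glmQLFTest, no covariate), and p-values were adjusted by Benjamini-Hochberg over 18453 genes. The script was tested on simulated data. The floor for genes at 0 in all 4 CCDC6-RET libraries was 3 counts over the group, which is 0.0684 CPM. Ratios of copies had 0.5 added to each count and were compared by exact permutation (scipy 1.17.1). CPM, sums and ratios carry counting error beside tumor spread. Values in every library were given for the immune, catalytic and copied genes, psme1, psme2, psme3, psma8, psmd14, psmg1, psmf1, psmc3ip and the extremes of each class, and list genes by the smallest p, up to 4 a list. Alternatives were RLE, total count and ribosomal protein scaling, DESeq2 1.42.0, limma-voom 3.58.1, no filter, a replicate block and leaving out each library. Gene names were matched to RefSeq tables of another assembly, whose positions were not used. Promoter and protein sequences were not used here, so the planned promoter motifs were not searched.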

Additional observations from a re-analysis of the deposited data

Results flagged for a closer look

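In 103 groups of libraries with values above 0, the highest or lowest library stood apart by Dixon's criterion in 6, and chance gives about 1 in 20. psme4a was at 13.6 CPM in BRAF(V600E) tumor 3, against 5.06 to 7.50 CPM in the other BRAF(V600E) tumors. psmd1 was at 73.0 CPM in BRAF(V600E) tumor 1, against 85.5 to 90.5 CPM in the others of the group, and psmf1 was at 15.8 CPM in the same tumor, against 20.3 to 22.0 CPM. psme4b was at 75.4 CPM in CCDC6-RET tumor 5, against 79.0 to 79.7 CPM in the other CCDC6-RET tumors. psmg3 was at 29.3 CPM in CCDC6-RET tumor 6, against 32.4 to 32.7 CPM in the others of the group. psmb11b was at 0.0702 CPM in BRAF(V600E) tumor 6, which is 1 count, and at 0 in the other BRAF(V600E) tumors.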

How the results depend on the processing

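Under RLE factors, DESeq2, limma-voom and no filter, and when any one library was left out, every proteasome gene with a call kept its direction. The calls lost were those of psmd1 (RLE, DESeq2 and 7 of the 9 leave-outs) and psme4b (no filter and all 9 leave-outs). Without CCDC6-RET tumor 3 or tumor 6, psmg2 and psmd12 were called higher, without tumor 6 also psmd4a, and limma-voom called psmg2. Total count scaling moved the median of all genes by -0.18 and RLE by -0.10 (log2), and total counts lost psmd1, psmd9 and psmg3. Scaling to ribosomal protein genes moved the median of all genes by -0.56. It gave 13 in place of 37 proteasome genes higher and 8 in place of 6 lower, and over all genes 3063 in place of 6255 higher and 8937 in place of 7043 lower. Under it 4 genes called in either fit changed sign, psmd1 to -0.025, psme3 to -0.51 (edgeR adjusted p = 0.0406), psmd9 to -0.12 and psmg1 to -0.50 (edgeR adjusted p = 0.0497). Changes of sign among genes called in neither fit are not counted here. The number of copy ratios past the threshold was 2, and it was 3 without CCDC6-RET tumor 6 and 0 without any other single library, since fewer libraries raise the smallest possible p. It was also 2 with 1 added to each count. Replicate numbers 2, 3 and 6 occur in both groups, but deviations of same-numbered libraries correlated at only 0.03, 0.01 and -0.04. What the shared numbers stand for is not in the labels. With the replicate block on these 6 libraries, 34 proteasome genes were higher and 5 lower, psma6l, psmd1, psme4b and psmd9 losing their calls, as they did on the same 6 libraries without the block, and 0 copy ratios passed, since 3 pairs allow no exact p below 0.25. psmb11b, at 3 counts in all, was too low for a call under any setting that tested it. Promoter motifs were not run.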
